A study of Mus musculus with 54 samples.

Results

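Clock output genes are genes that the molecular clock switches on and off each day without being part of the clock itself. The 9 described here, Wee1, Usp2, Lonrf3, Nampt, Por, Klf9, Klf10, Tspan4 and Herpud1, are known as clock-controlled genes of peripheral tissues such as liver, and were taken as the rows of the deposited count table whose Ensembl identifiers carry these symbols. All 9 were found among the 30031 genes of the table, and all 9 were among the 18941 genes with enough reads to be tested. They were followed here in the suprachiasmatic nucleus (SCN), the hypothalamic pacemaker that sets the phase of the other clocks of the body.

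The SCN was cut out by laser-capture microdissection from male C3H/HeH mice aged 10 to 12 weeks, kept at 12 hr of light (150 lux) and 12 hr of dark, with no further treatment or genetic change named in the labels. Every pool carries WT (wild type) in its column name. Mice were sampled at Zeitgeber time (ZT, hours after lights on) 2, 6, 10, 14, 18 or 22, so that ZT2, ZT6 and ZT10 lie in the light and ZT14, ZT18 and ZT22 in the dark. Each timepoint had 3 pools (A, B and C) of 5 mice, and each pool was sequenced on 3 lanes, which gave 54 lane samples and 18 pools. Between 15412981 and 35820945 reads per pool were counted on genes, and levels are given as CPM (counts scaled to the size of the library, after TMM normalisation). About 1 day was covered, with no repeat of a timepoint on a second day and no constant darkness, so that a response to light and a rhythm of the clock cannot be told apart.

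The clock is a feedback loop in which CLOCK and BMAL1 bind E-boxes and drive the Per and Cry genes, whose proteins then repress them. Side loops act through D-boxes, bound by DBP, TEF, HLF and NFIL3, and through the response elements of the ROR and REV-ERB receptors. Output genes carry one or more of these elements, and because the elements are active at different times of day, outputs peak at different phases. In peripheral tissues many outputs also answer to feeding, temperature and glucocorticoids, to which the SCN is known to respond less.

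The promoter windows of the members are shown where the letters help to place a gene in this scheme. RefSeq (GRCm38.p6) gave a window, 250 bases before to 50 after a start site, for 7 of the 9 members, with 2 windows for Tspan4, and none for Wee1 and Klf10. On both strands 7 motifs were searched: the E-box CACGTG, the E-prime box CACGTT, the D-box TTATGTAA or TTACGTAA, the receptor core AGGTCA, the cAMP response element (CRE) TGACGTCA, its core TGACG, which the full CRE also contains, and the GC box GGGCGG. The upstream 250 bases of 4 windows are printed in lower case, all on the plus strand, with the motif matches in capitals. Herpud1, Tspan4 and Por are the members with a window that passed the tests of rhythm described next, and Lonrf3 is shown as a member with an E-box that did not.
Herpud1, chr8:94386179-94386428: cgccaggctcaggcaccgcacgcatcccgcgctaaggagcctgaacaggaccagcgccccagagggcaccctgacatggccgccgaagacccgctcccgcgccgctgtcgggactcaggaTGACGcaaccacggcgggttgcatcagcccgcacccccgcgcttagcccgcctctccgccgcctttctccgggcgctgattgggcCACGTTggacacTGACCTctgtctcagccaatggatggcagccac
Tspan4, second window, chr7:141476130-141476379: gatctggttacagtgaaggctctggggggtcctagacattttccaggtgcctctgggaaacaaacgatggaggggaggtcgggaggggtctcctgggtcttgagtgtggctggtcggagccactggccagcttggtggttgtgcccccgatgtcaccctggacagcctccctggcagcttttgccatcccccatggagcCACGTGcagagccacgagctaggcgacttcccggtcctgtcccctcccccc
Por, chr5:135688895-135689144: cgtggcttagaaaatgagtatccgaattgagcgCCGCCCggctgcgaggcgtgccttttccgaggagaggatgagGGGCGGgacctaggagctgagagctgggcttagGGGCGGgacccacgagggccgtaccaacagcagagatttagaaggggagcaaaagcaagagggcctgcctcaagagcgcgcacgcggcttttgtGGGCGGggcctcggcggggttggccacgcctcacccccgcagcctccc
Lonrf3, chrX:36328159-36328408: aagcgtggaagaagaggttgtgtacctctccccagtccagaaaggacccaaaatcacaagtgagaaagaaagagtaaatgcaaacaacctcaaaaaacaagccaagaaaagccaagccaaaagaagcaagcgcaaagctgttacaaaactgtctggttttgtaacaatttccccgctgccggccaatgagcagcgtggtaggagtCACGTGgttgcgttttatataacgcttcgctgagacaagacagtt

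An E-box was present at position -51 (counted from the start site) in the second Tspan4 window and at -45 in the Lonrf3 window, and 7.15% of all 32851 windows held one. Herpud1 had an E-prime box at -45 (4.68% of windows), a receptor core on the opposite strand at -33 (16.3%) and a CRE core at -130 (20.8%). The Por window held 4 GC boxes (35.7% of windows hold at least 1) and none of the other letters. Of the windows not printed, Nampt had a receptor core at -151 and a CRE core at -135, Usp2 had a CRE core at -4, and Klf9 had one at -46. The first Tspan4 window had no E-box and only GC boxes, at -69, -24 and -2. GC boxes also lay at -113, -69 and -53 in the Usp2 window, and at -244, -114, -62, -30 and -10 in that of Nampt. No member window held a D-box, which 1.06% of windows do, or a full CRE, which 1.79% do. A match is a run of letters and not a bound site, and the annotations place some starts differently. The GENCODE gene Lonrf3 begins at 36328353 on chromosome X, inside the printed window. Por begins at 135670033 on chromosome 5, far before its window, which opens at 135688895. Likewise Usp2 begins at 44067021 on chromosome 9, and its window opens at 44084670. Only the windows at the RefSeq starts were searched, and letters near other starts of these genes were not seen.

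Across the 6 timepoints 7 of the 9 members changed (edgeR quasi-likelihood F-test, adjusted p, here q, under 0.05), beside 44.0% of all tested genes. These were Herpud1, Klf10, Por, Tspan4, Usp2, Klf9 and Wee1, while Nampt (q = 0.0826) and Lonrf3 (q = 0.685) did not pass. Of the 7, the 5 members Herpud1, Klf10, Por, Tspan4 and Wee1 also passed JTK_CYCLE, an exact rank test for a 24 hr wave, and are called cycling, beside 29.9% of all tested genes. The median range of the timepoint means was 2.07 on the log2 scale over the members and 1.63 over all tested genes. The pools are separate groups of mice, and the p-values measure the spread between such pools. Leaving out together the 3 pools with the fewest reads (ZT2 A, ZT6 C and ZT18 C), an alternative chosen after seeing the data, left 7 members changed and 5 cycling. Of the 18553 genes tested in that setting, 9502 changed and 5791 were cycling.

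**Figure D1:**
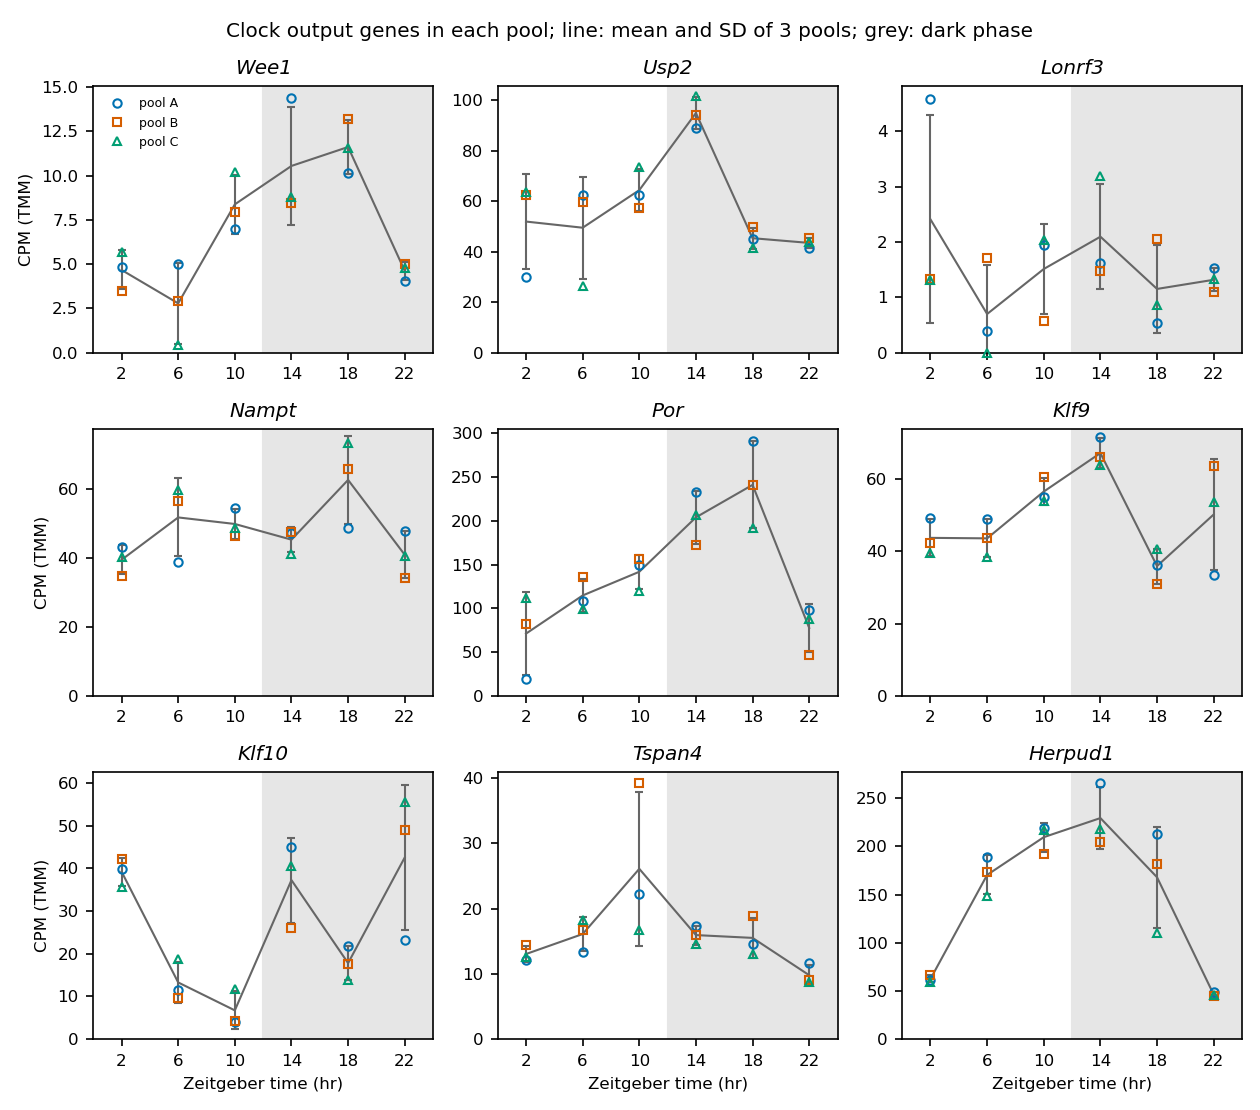
Level in CPM (vertical axis, from 0) of each of the 9 clock output genes against Zeitgeber time in hr (horizontal axis), with 1 symbol per pool, the mean and SD of the 3 pools as a line with bars, and the dark phase in grey. Herpud1 was low at ZT2 and ZT22 with its highest mean at ZT14, Por was low at ZT2 and ZT22 with its highest mean at ZT18, Klf10 was lowest at ZT10, and Usp2 and Klf9 had their highest mean at ZT14.

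Across the whole series the libraries of ZT14 and ZT18, of ZT22 and ZT2, and of ZT6 and ZT10 lay together in pairs, which held 93.3% of the variance of the first principal component (41.0% of the variance of the 500 most variable genes). The study's own plot names timepoint and sequencing batch, and the sources used here do not give which pools were sequenced together, so that a difference between pairs and a batch cannot be told apart. Comparisons inside each pair are therefore given separately further on. Markers of SCN neurons (9 of 10 changed over time, none at 0 in a pool) summed to between 1804 and 5836 CPM per pool. They were at 4356 to 5836 CPM at ZT6 and ZT10 against 1804 to 2906 CPM at ZT14 and ZT18. Oligodendrocyte markers (8 of 8 changed over time) were at 4798 to 6139 CPM at ZT14 and ZT18 against 1315 to 4477 CPM at the other timepoints, and astrocyte markers (6 of 8) were at 4161 to 5798 CPM at ZT2 and ZT22 against 2102 to 4081 CPM elsewhere. Microglia markers (6 of 8) lay between 105.3 and 288.7 CPM and endothelial ones (4 of 8) between 137 and 321.1 CPM per pool. Markers of neighbouring hypothalamic neurons (3 of 8 changed) summed to 17.5 to 90.6 CPM and those of telencephalic excitatory neurons (3 of 6) to 16.3 to 229.8 CPM per pool, with Agrp, Hcrt, Pmch, Crh, Gnrh1, Emx1 and Neurod2 at 0 in at least 1 pool. In such bulk tissue fewer cells of a type and less RNA per cell cannot be told apart, and the part these marker levels have in the results was not tested.

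Herpud1 encodes a membrane protein of the endoplasmic reticulum (ER) that helps to hand misfolded proteins to the proteasome, and it was the most abundant member. Per kb of exon its level was 63.3 CPM ± 32.2 (SD over 18 pools), higher than in 94.6% of tested genes. The gene lies on chromosome 8 (94386438 to 94395377, GRCm38, plus strand). In the light its level in pools A, B and C was 61.7, 66.5 and 59.3 CPM at ZT2, 189, 174 and 149 CPM at ZT6, and 219.5, 192 and 217 CPM at ZT10. In the dark it was 266, 204 and 218 CPM at ZT14, 213, 181 and 109.9 CPM at ZT18, and 48.7, 44.2 and 45.8 CPM at ZT22. Every pool from ZT6 to ZT18 was above every pool of ZT22 and ZT2, and ZT2 was above ZT22 without overlap, while the pools of ZT10 and ZT14 overlapped. The highest mean was 229 CPM ± 32.2 (SD, n = 3) at ZT14 and the lowest 46.3 CPM ± 2.26 at ZT22, a 4.96-fold range (q = 2.31e-07; exact JTK_CYCLE p = 0.000635). Of the variance among its 6 timepoint means (log2), 94.4% lay between the pairs of timepoints, which cannot be told apart from a batch. Herpud1 passed both tests without any single pool. Of the 7 marker lists the astrocyte one had the strongest correlation with it over the 18 pools (r = -0.72, and 0.21 after the timepoint means were taken away), and the telencephalic one the strongest after that step (-0.32 and then -0.46). These values, here and for the other members, describe pools that share their libraries.

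Por encodes cytochrome P450 oxidoreductase, which passes electrons from NADPH to the microsomal P450 enzymes, to squalene epoxidase and to heme oxygenase. The gene lies on chromosome 5 (135670033 to 135735326, plus strand), and with 35.3 CPM per kb ± 17.6 it was the second most abundant member. In pools A, B and C it stood at 19.5, 82.2 and 112 CPM at ZT2, at 108, 136 and 99.9 CPM at ZT6, and at 149, 157 and 119.8 CPM at ZT10. After lights off it stood at 233, 173 and 206 CPM at ZT14, at 291, 241 and 192 CPM at ZT18, and at 98.1, 47.1 and 87.7 CPM at ZT22. All 6 pools of ZT14 and ZT18 were above the other 12 pools, and pool A of ZT2, with the second fewest reads of all pools, was the lowest. The mean was 241 CPM ± 49.8 at ZT18 and 71.2 CPM ± 47.2 at ZT2, a 3.39-fold range (q = 0.00629; exact JTK_CYCLE p = 0.000986), and Por passed both tests without any single pool. Of the variance among its 6 timepoint means (log2), 95.4% lay between the pairs of timepoints. Of the 7 marker lists the endothelial one had the strongest correlation with Por, r = -0.58, and also r = -0.69 after the timepoint means were taken away, while the oligodendrocyte markers, high at the same timepoints as Por, stood at 0.44 and 0.16.

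Wee1 encodes the kinase that holds back entry into mitosis by phosphorylating Cdk1, and its liver gene is a textbook E-box target. It lies on chromosome 7 (110122046 to 110143286, plus strand) and was scarce in the SCN, with 9 to 515 reads per pool and 2.08 CPM per kb ± 1.10. During the light phase its level was 4.86, 3.49 and 5.66 CPM at ZT2, 4.99, 2.94 and 0.426 CPM at ZT6, and 6.99, 7.94 and 10.2 CPM at ZT10, in pools A, B and C. During the dark phase it was 14.4, 8.48 and 8.80 CPM at ZT14, 10.1, 13.2 and 11.5 CPM at ZT18, and 4.06, 5.03 and 4.77 CPM at ZT22. All 9 pools of ZT10, ZT14 and ZT18 were above the 9 pools of ZT22, ZT2 and ZT6, and the lowest pool, ZT6 C, rests on 9 reads. The highest mean was 11.6 CPM ± 1.52 at ZT18 and the lowest 2.78 CPM ± 2.29 at ZT6, a 4.17-fold range (q = 0.0301; exact JTK_CYCLE p = 0.00942).
The Wee1 time test was close to its threshold, and q was 0.0575 without ZT6 B, 0.0586 without ZT14 A and 0.0561 without ZT18 B. The second deposited table, of normalised values, gave fewer Wee1 reads for all 6 pools of ZT6 and ZT10, with a log2 ratio to the counts (each plus 1) between -2.32 and -0.42, and q was 0.0624 with those reads. Of the marker lists, oligodendrocytes had the strongest correlation with Wee1 over the 18 pools (r = 0.68, and 0.62 after the timepoint means were taken away), and microglia the strongest after that step (0.49 and then 0.81). ZT6 C, with 9 Wee1 reads, was also the lowest pool for microglia (105.3 CPM) and oligodendrocyte (1315 CPM) markers. How far these correlations rest on that pool was not tested.

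Klf10 encodes a Krüppel-like zinc finger factor that binds GC-rich promoter elements and is induced early by TGF-beta. At 6.25 CPM per kb ± 3.87, it is transcribed from the minus strand of chromosome 15 (38291463 to 38300706). By day it was at 39.8, 42.2 and 35.7 CPM at ZT2, at 11.6, 9.52 and 18.7 CPM at ZT6, and at 4.03, 4.30 and 11.8 CPM at ZT10 (pools A, B and C). By night it was at 45.1, 26.0 and 40.6 CPM at ZT14, at 21.9, 17.7 and 13.9 CPM at ZT18, and at 23.2, 48.9 and 55.5 CPM at ZT22. The 9 pools of ZT22, ZT2 and ZT14 were all above the 9 pools of ZT6, ZT10 and ZT18, so that Klf10 was low in the middle of the day and again at ZT18. Its mean was 42.5 CPM ± 17 at ZT22 and 6.72 CPM ± 4.44 at ZT10, the widest range of the members (6.33-fold; q = 0.000248), and its time test passed without any single pool. The exact JTK_CYCLE p was 0.0319, with the wave peaking at ZT22, and it rose to between 0.0620 and 0.113 without any one of ZT6 A, ZT6 B, ZT10 A, ZT10 B, ZT10 C, ZT22 B or ZT22 C. The astrocyte markers had the strongest correlation with Klf10 over the 18 pools (r = 0.82, and 0.30 after the timepoint means were taken away), and the telencephalic ones the strongest after that step (0.57 and then 0.47).

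Klf9, of the same family, encodes a factor that answers to glucocorticoids and thyroid hormone. Its gene on chromosome 19 (23141226 to 23168134, plus strand) stood at 10.3 CPM per kb ± 2.54. Its level in pools A, B and C was 49.4, 42.4 and 39.5 CPM at ZT2, 48.8, 43.6 and 38.3 CPM at ZT6, and 55.1, 60.7 and 53.8 CPM at ZT10. It was then 71.8, 66.0 and 63.8 CPM at ZT14, 36.3, 30.9 and 40.6 CPM at ZT18, and 33.4, 63.6 and 53.5 CPM at ZT22. Every pool of ZT14 was above every other pool, although ZT22 B (63.6 CPM) came close to ZT14 C (63.8 CPM), and the 3 pools of ZT22 were the most spread. The means were 67.2 CPM ± 4.11 at ZT14 and 35.9 CPM ± 4.85 at ZT18, a 1.87-fold range (q = 0.0179), and q was 0.0602 without ZT14 A. The highest and the lowest timepoint are neighbours, and JTK_CYCLE did not pass (exact p = 0.332). Only 2.63% of the variance among the Klf9 timepoint means lay between the pairs of timepoints, the smallest share of the members. The share was 81.2% for Klf10, 70.5% for Tspan4, 64.5% for Nampt, 52.4% for Wee1, 41.8% for Lonrf3 and 26.6% for Usp2. Markers of neighbouring hypothalamic neurons had the strongest correlation with Klf9 over the 18 pools (r = -0.62), and also after the timepoint means were taken away (-0.77).

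Usp2 encodes a ubiquitin-specific protease whose targets include clock proteins. On chromosome 9 (44067021 to 44095627, plus strand), it stood at 12.1 CPM per kb ± 4.35. At ZT2, ZT6 and ZT10 its pools stood at 30.1, 62.3 and 63.5 CPM, at 62.5, 59.7 and 26.3 CPM, and at 62.4, 57.2 and 73.6 CPM. At ZT14, ZT18 and ZT22 they stood at 88.9, 94.0 and 102 CPM, at 45.1, 49.6 and 41.3 CPM, and at 41.3, 45.3 and 43.8 CPM. The 3 pools of ZT14 were above all 15 others, and ZT6 C and ZT2 A, both among the 3 pools with the fewest reads, were the lowest. The mean at ZT14 was 95.0 CPM ± 6.51, against 43.5 CPM ± 1.99 at ZT22, a 2.18-fold range (q = 0.0173), and the order of ZT2, ZT6, ZT18 and ZT22 was within their spread. The call rests on ZT14, since q was 0.0555 without ZT14 B and 0.0733 without ZT14 C. JTK_CYCLE did not pass for Usp2 (exact p = 0.332), while a 24 hr cosine fitted in its place did (q = 0.0488). Correlations with the marker lists reached r = -0.37 for SCN neurons over the 18 pools (-0.33 after the timepoint means were taken away) and 0.55 for microglia after that step (0.28 before). On the opposite strand 2 annotated genes share 200 exon bases with Usp2, 4.15% of its exon length, and neither is a row of the count table.

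Tspan4 encodes a tetraspanin, a small protein that spans the membrane and organises membrane domains, known for its part in migrasomes. It lies on chromosome 7 (141475240 to 141493427, plus strand), at 7.38 CPM per kb ± 3.09. In the light phase its level was 12.1, 14.4 and 12.6 CPM at ZT2, 13.3, 16.7 and 18.3 CPM at ZT6, and 22.2, 39.3 and 16.8 CPM at ZT10, in pools A, B and C. In the dark phase it was 17.4, 15.9 and 14.5 CPM at ZT14, 14.6, 18.9 and 13.1 CPM at ZT18, and 11.6, 9.07 and 8.71 CPM at ZT22. ZT10 B was far above the rest, ZT22 was below every other timepoint, and the pools of ZT6, ZT14 and ZT18 lay among each other. The means of 26.1 CPM ± 11.8 at ZT10 and 9.79 CPM ± 1.57 at ZT22 make a 2.67-fold range (q = 0.0136; exact JTK_CYCLE p = 0.000400). Without ZT10 B the time test gave q = 0.0870, and JTK_CYCLE still passed. Astrocyte markers had the strongest correlation with it over the 18 pools (r = -0.74, and -0.49 after the timepoint means were taken away), and those of neighbouring hypothalamic neurons the strongest after that step (0.13 and then 0.54). Tspan4 shares 292 exon bases (13.4% of its exon length) with Chid1 on the opposite strand, which had a median of 2601 reads against 353.5 for Tspan4, and whether reads were assigned by strand is not given in the sources used here.

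Nampt encodes the rate-limiting enzyme of NAD+ salvage, which in liver links the clock to the sirtuins. It lies on chromosome 12 (32819545 to 32853349, plus strand), at 9.55 CPM per kb ± 2.06, and its level stayed between 34.2 and 73.4 CPM in all 18 pools. The highest mean, 62.5 CPM ± 12.6 at ZT18, rests on 48.7, 65.6 and 73.4 CPM in pools A, B and C. The lowest, 39.4 CPM ± 4.21 at ZT2, rests on 43.1, 34.8 and 40.3 CPM. Neighbouring timepoints in the order of the means overlapped throughout, and the 1.59-fold range was the narrowest of the members (q = 0.0826; exact JTK_CYCLE p = 1). The time test passed without ZT6 A (q = 0.0349), without ZT18 A (q = 0.0391) and with the reads of the normalised table (q = 0.0441).

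Lonrf3 encodes a RING-finger protein with a LON domain, a class of ubiquitin ligases. It lies on chromosome X (36328353 to 36362341, plus strand) and was the scarcest member, with 0 to 116 reads per pool and 0.401 CPM per kb ± 0.278, a level above 22.9% of tested genes. It ranged from 0 reads in ZT6 C to 4.58 CPM in ZT2 A. A count of 0 in ZT6 C allows up to 3 reads by counting error alone, or 0.154 CPM before TMM scaling. Both the highest mean (2.41 CPM ± 1.88 at ZT2) and the lowest (0.699 CPM ± 0.893 at ZT6) had pools that overlapped, and a difference between timepoints was not detectable at this depth (q = 0.685; exact JTK_CYCLE p = 1).

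The timepoint of the highest mean differed between the members, and 6 of 9 had it in the first hours of the dark or in mid-night. The highest mean was at ZT14 for 3 members (Usp2, Klf9 and Herpud1), at ZT18 for 3 (Wee1, Nampt and Por), and at ZT10, ZT22 and ZT2 for 1 each (Tspan4, Klf10 and Lonrf3). Among all tested genes 18.6% had their highest mean at ZT14 and 15.5% at ZT18. The pools of the highest and the next timepoint overlapped for every member except Usp2 and Klf9. The best JTK_CYCLE wave peaked at ZT10 for Usp2, Tspan4 and Herpud1, and at ZT22 for Klf10. It peaked at ZT14 for Wee1, Lonrf3, Nampt, Por and Klf9, whether or not the test passed. ZT14 and ZT18 form 1 of the pairs of timepoints, and a difference between pairs and a batch cannot be told apart. A 24 hr cosine fitted to log2 CPM, given as a description, placed Tspan4 at ZT10.5 ± 1.00 hr (SE), Herpud1 at ZT11.8 ± 0.420 hr, Usp2 at ZT12.5 ± 1.24 hr, Por at ZT14.2 ± 0.790 hr and Wee1 at ZT15.8 ± 0.972 hr. Klf10 stood apart at ZT21.6 ± 1.04 hr. The fitted amplitude (log2, from mean to peak) was 1.17 ± 0.13 for Herpud1, 1.07 ± 0.27 for Wee1, 1.01 ± 0.27 for Klf10, 0.95 ± 0.20 for Por, 0.50 ± 0.13 for Tspan4 and 0.44 ± 0.14 for Usp2.

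**Figure D2:**
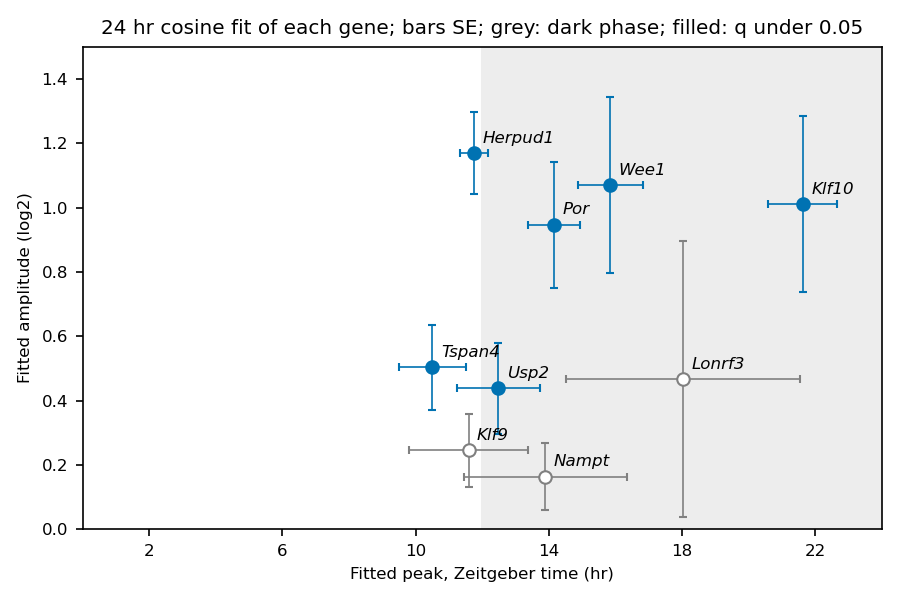
Peak time (horizontal axis, Zeitgeber time in hr) and amplitude (vertical axis, log2) of a 24 hr cosine fitted to each clock output gene over 18 pools, with SE as bars, the dark phase in grey and filled points for q under 0.05. Filled points run from Tspan4 at ZT10.5 to Wee1 at ZT15.8, with Klf10 alone at ZT21.6, while Klf9, Nampt and Lonrf3 are open.

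For comparison, 16 of 19 core clock and clock-linked genes changed over time in the same pools, beside 44.0% of all tested genes. Of this list 12 genes were cycling, beside 29.9% of all tested genes. The members of that list with the widest ranges were Per2, a repressor of the loop, with 123 CPM ± 60.0 at ZT6 and 10.9 CPM ± 4.02 at ZT22, Dbp, with 104.6 CPM ± 4.76 at ZT6 and 12.9 CPM ± 2.93 at ZT18, and Per1, with 70.0 CPM ± 27.9 at ZT6 and 8.98 CPM ± 0.197 at ZT22. All 3 had their highest mean at ZT6, where no output gene of the 9 did and 19.8% of all tested genes did. Of the 16 changed genes of that list, 8 had their highest mean at ZT6, 4 at ZT2, 3 at ZT14 and 1 at ZT10.

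**Figure D3:**
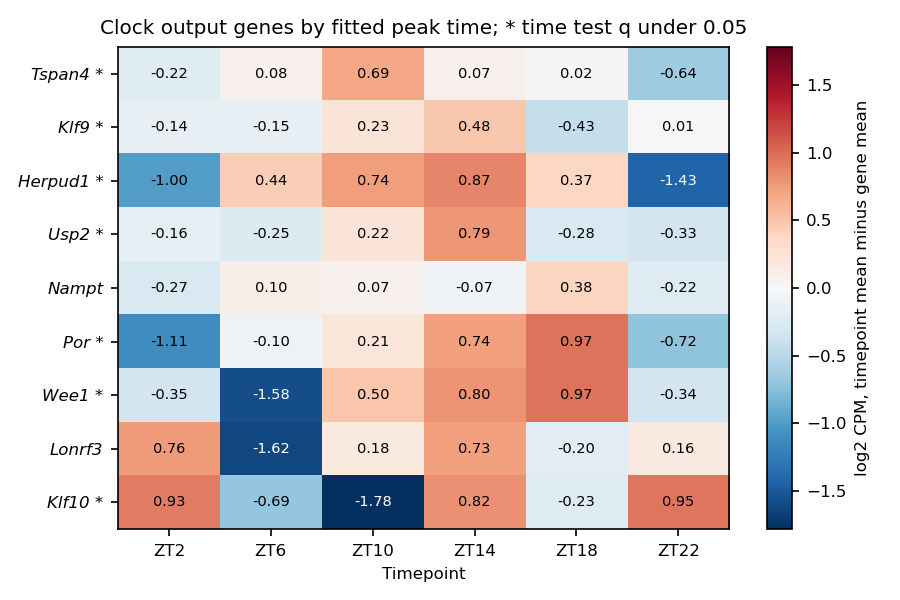
Mean log2 CPM of each clock output gene at each timepoint (columns) minus the gene's own mean, printed in each cell and coloured from blue (below) to red (above), with genes ordered by fitted peak time and an asterisk where the time test passed. Herpud1 reaches -1.43 at ZT22 and 0.87 at ZT14, Por -1.11 at ZT2 and 0.97 at ZT18, and Klf10 -1.78 at ZT10 and 0.95 at ZT22.

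Inside the pairs of timepoints no member passed at q under 0.05. For ZT14 minus ZT18, 0 members were called, beside 0.570% of tested genes, and 5 of 9 had an unadjusted p under 0.05, beside 13.5%. Usp2 was higher at ZT14 by 1.07 ± 0.29 (log2 ± SE, q = 0.0965), Klf9 by 0.90 ± 0.21 (q = 0.0595), Klf10 by 1.06 ± 0.40 (q = 0.239) and Herpud1 by 0.45 ± 0.19 (q = 0.310), and Nampt was lower, at -0.47 ± 0.20 (q = 0.316). Overlap of pools was not counted over all tested genes, here or in the other pairs, and is given as a description. The pools of ZT14 and ZT18 did not overlap for Usp2, Klf9, Klf10 and Nampt, and overlapped for Herpud1. DESeq2 called 2 of these, Usp2 (q = 0.0136) and Klf9 (q = 0.00652), beside 4.46% of tested genes, and edgeR called the same pair without ZT6 C (q = 0.0307 and 0.0432), and Klf9 alone without ZT22 A (q = 0.0232). The median difference was 0.45 over the members and 0.01 over all tested genes.

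For ZT22 minus ZT2, 0 members were called by edgeR and 0 by DESeq2, beside 0.0317% of tested genes by edgeR and 0.180% by DESeq2. Herpud1 alone had an unadjusted p under 0.05, beside 3.59% of tested genes, at -0.43 ± 0.20 with every pool of ZT22 below every pool of ZT2 (q = 1). For ZT6 minus ZT10, 0 members were called by either tool, beside 0.0475% of tested genes by edgeR and 1.33% by DESeq2, and 3 had an unadjusted p under 0.05, beside 10.8%. These were Wee1 at -1.59 ± 0.56 (q = 0.375), Tspan4 at -0.70 ± 0.29 (q = 0.420) and Klf10 at 0.98 ± 0.41 (q = 0.419). The Wee1 difference ran from -2.31 without ZT6 A to -1.08 without ZT6 C, and that of Klf10 reached 1.67 without ZT10 C. Wee1 did not overlap between these timepoints, whereas Tspan4 (16.8 CPM at ZT10 against 18.3 CPM at ZT6) and Klf10 (11.8 CPM against 9.52 CPM) did. The median over the members was -0.02 for ZT22 minus ZT2 and -0.38 for ZT6 minus ZT10, against 0.01 and -0.03 over all tested genes.

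**Figure D4:**
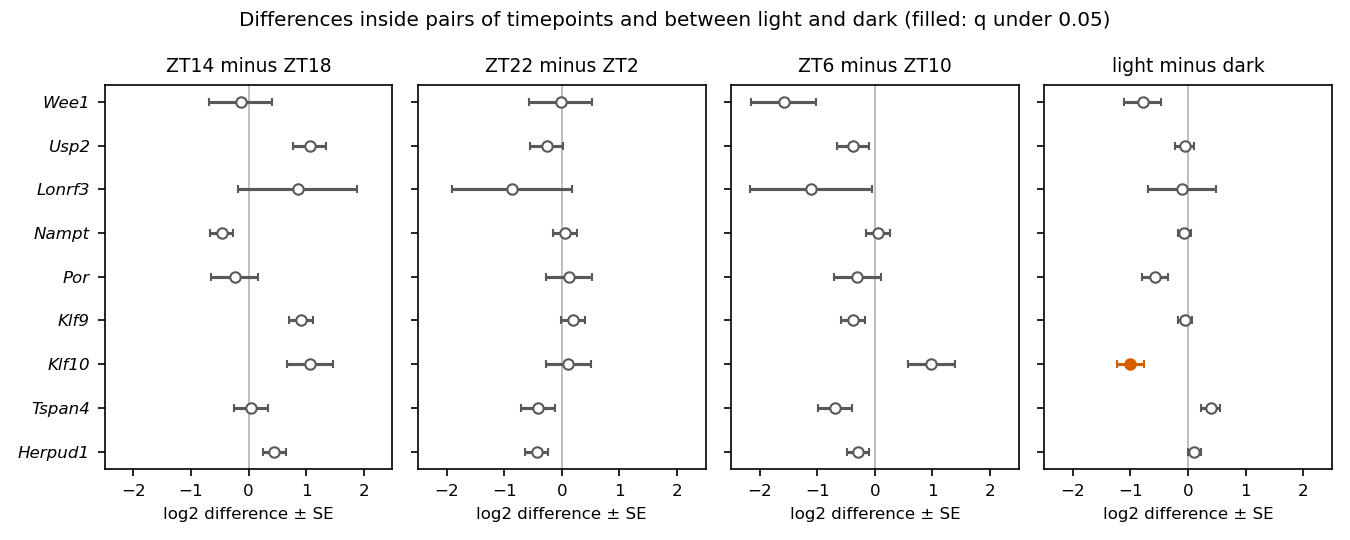
Log2 difference with SE (horizontal axis) of each clock output gene for ZT14 minus ZT18, ZT22 minus ZT2, ZT6 minus ZT10 and the light minus the dark timepoints, with filled points for q under 0.05. The only filled point is Klf10 for light minus dark at -1.0, and Wee1 for ZT6 minus ZT10 lies at -1.59 and Usp2 for ZT14 minus ZT18 at 1.07, both open.

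Between the light timepoints and the dark ones (the mean of ZT2, ZT6 and ZT10 minus that of ZT14, ZT18 and ZT22) 1 member was lower in the light, beside 14.3% of tested genes, and 0 were higher, beside 9.56%. This was Klf10, at -1.0 ± 0.23 (q = 0.00459), although not every light timepoint was low. Its mean at ZT2, in the light, was 39.2 CPM, beside 37.2 CPM at ZT14, 17.8 CPM at ZT18 and 42.5 CPM at ZT22. Wee1 at -0.79 ± 0.32 (q = 0.0782), Por at -0.57 ± 0.23 (q = 0.0844) and Tspan4 at 0.39 ± 0.17 (q = 0.103) had an unadjusted p under 0.05 only. DESeq2 called Wee1 (q = 0.0478) and Tspan4 (q = 0.0277) as well as Klf10, which makes 3 members in either direction, beside 27.7% of tested genes. Herpud1, with a wide range over the day, differed by 0.11 ± 0.11 (q = 0.529), with high timepoints on both sides of lights off. The median over the members was -0.06 and over all tested genes -0.13.

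The members did not share a single profile. Over the 36 pairs of members and 18 pools, the highest Pearson correlations of log2 CPM were 0.70 for Por and Herpud1, 0.68 for Tspan4 and Herpud1, and 0.61 for Wee1 and Lonrf3. The lowest were -0.74 for Klf10 and Tspan4 and -0.53 for Klf10 and Herpud1. After the timepoint means were taken away, Por and Herpud1 stood at 0.25 and Tspan4 and Herpud1 at 0.04. Wee1 and Usp2 (0.56 over all pools) then stood at 0.66, Wee1 and Lonrf3 at 0.62, and Usp2 and Por (0.50 over all pools) at 0.58. Wee1, Usp2 and Lonrf3 all had their lowest level in ZT6 C, with 9 reads for Wee1 and 0 for Lonrf3. The pools share library depth and normalisation, and these correlations are a description.

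Among 15618 other genes that averaged 10 counts or more per pool, the gene whose log2 CPM followed each member most closely over the 18 pools was Flywch1 for Herpud1 (r = 0.97), Arhgdia for Por (0.96), Gria1 for Klf10 (0.95) and Gm13127 for Wee1 (0.93). It was Abca9 for Lonrf3 (0.89), Ubxn4 for Tspan4 (0.87), Ovol2 for Klf9 (0.84), Prpf39 for Nampt (0.84) and Prickle1 for Usp2 (0.84). Of these genes, Gm13127 (q = 0.434), Prickle1 (q = 0.138) and Abca9 (q = 0.0577) did not pass the time test. Ovol2 was near the floor, with timepoint means between 0 and 1.67 CPM. Flywch1 had 98.6 CPM at ZT14 and 1.30 CPM at ZT2, a wider range than that of Herpud1, and Gria1, an AMPA receptor subunit, had its highest mean of 499 CPM at ZT2 and its lowest of 250.5 CPM at ZT10.

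The genes that work with each member were counted in the same fit. Of all tested genes, 44.0% passed the time test and 29.9% were cycling. Of 30 other genes of ER stress and ER-associated degradation, 21 changed over time and 18 were cycling. Manf, a secreted ER stress protein, was at 246 CPM ± 44.4 at ZT10 and 13.2 CPM ± 1.08 at ZT2 (q = 2.68e-10). Sdf2l1, of an ER chaperone complex, was at 30.7 CPM ± 1.38 and 1.97 CPM ± 0.762 at the same timepoints, and Edem2, which marks glycoproteins for degradation, at 43.7 CPM ± 5.83 and 4.31 CPM ± 2.98. These 3 had their highest mean at ZT10 and their lowest at ZT2, next to the ZT14 and ZT22 of Herpud1. The changed genes of the list were spread over the day, whose highest mean fell on ZT6 for 4 genes, ZT10 for 6, ZT14 for 5, and ZT18 and ZT22 for 3 each.

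Of 15 electron acceptors and partners of Por, 10 changed over time and all 10 were cycling. The highest mean of the 10 was at ZT2, where Por was lowest, for 3 (Cyp2d22, Cyp2j9 and Cyb5r1), at ZT18 for 3, at ZT14 for 2, and at ZT10 and ZT22 for 1 each. Sqle, the squalene epoxidase that Por supplies, was highest at ZT18 (204 CPM ± 16.3) and lowest at ZT2 (39.7 CPM ± 13.5), the same timepoints as Por, and so was Cyp4f13 (14.9 CPM ± 10.5 and 2.85 CPM ± 1.71). Cyb5r3, the cytochrome b5 reductase, was highest at ZT14 (171 CPM ± 28.0) and lowest at ZT2 (49.8 CPM ± 25.6). Of 20 genes of NAD synthesis and use 10 changed and 8 were cycling, although Nampt itself did not pass. Parp1 and Sirt6, which consume NAD, were highest at ZT14 (59.4 CPM ± 2.29 and 42.9 CPM ± 2.62), and Nnmt, which methylates nicotinamide, was highest at ZT10 (35.4 CPM ± 3.65) and lowest at ZT14 (2.27 CPM ± 0.747).

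Of 12 kinases, phosphatases and targets around the step that Wee1 controls, 1 changed over time and 0 were cycling. The gene was Chek2, a checkpoint kinase, at 20.3 CPM ± 4.01 at ZT6 and 7.21 CPM ± 1.40 at ZT14 (q = 0.00756). Cdk1, the target of Wee1, had means between 0.164 and 1.04 CPM (q = 0.687). Of 13 other KLF genes 6 changed and 3 were cycling, with Klf5 at 23.8 CPM ± 4.38 at ZT10 and 2.17 CPM ± 1.85 at ZT2, Klf15 at 17.4 CPM ± 5.27 at ZT6 and 3.63 CPM ± 0.336 at ZT2, and Klf12 at 8.49 CPM ± 2.43 at ZT2 and 0.840 CPM ± 0.623 at ZT6.

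Of 22 other tetraspanins 14 changed over time and 11 were cycling. Tspan7 was highest at ZT22 (2511 CPM ± 485), the timepoint at which Tspan4 was lowest, while Cd82 was highest at ZT14 (50.9 CPM ± 2.05) and Tspan12 at ZT18 (111 CPM ± 15.8), all 3 with their lowest mean at ZT6. Of 41 other ubiquitin-specific proteases and LON-RING ligases 25 changed and 19 were cycling. Usp19 shared the highest and lowest timepoints of Usp2 (58.5 CPM ± 8.94 at ZT14 and 12.5 CPM ± 1.81 at ZT22), whereas Usp54 was highest at ZT2 (78.6 CPM ± 6.27) and Lonrf1, the relative of Lonrf3, at ZT6 (26.0 CPM ± 1.96).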

How the data were processed

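Per the labels, RNA from laser-captured SCN tissue was amplified with the SMARTer kit and sequenced as 100 bp pairs, and the submitters' processing notes name GSNAP, HTSeq 0.5.4p1, DESeq2, mm10 and GRCm38. The authors deposited whole-number read counts per Ensembl gene, with the lanes of each pool combined, and a second table of normalised signal, for which their methods name DESeq2, with read numbers that differ from the counts at ZT6 and ZT10. All values of the second table were whole multiples of one step per column (100% within 0.0001 reads), so its reads were recovered as an alternative. The recovered reads equalled the counts for 92.7 to 94.2% of shared genes with reads, but for 8.72 to 12.1% at ZT6 and ZT10. No sample column was left unused (0 columns), and 0 rows named no gene.

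A gene was tested where more than 6 pools held 1 read or more. edgeR 4.0.16 in R 4.3.3 (TMM, quasi-likelihood F-test, 1 fit to 18 pools with the 6 timepoints and no covariate) gave the time test and the 4 contrasts, with Benjamini-Hochberg adjustment over 18941 genes and a threshold of 0.05. JTK_CYCLE was written anew in Python 3.11.15 (24 hr, 6 lags, exact two-sided null, Bonferroni factor 6). The SE of a contrast is its log2 difference divided by the root of F, and the cosine was fitted with limma 3.58.1. The code was tested on simulated data with known changes. Symbols, exons and positions come from GENCODE on GRCm38 (97.4% of identifiers), and promoter windows from RefSeq.

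The members and the gene lists were chosen with earlier results of these data known. Named genes are all 9 members, the most similar gene to each, the genes counted in a list and, from each list, up to 3 with the widest range past the time test without overlap, and Chid1 and Cdk1 were singled out after their values were seen. The pool letters do not pair the samples, since only 1 of 45 same-letter correlations of deviations was above 0.1 (range -0.19 to 0.10).

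Alternatives were DESeq2 1.42.0, its size factors or upper quartile scaling in place of TMM, other filters on low counts, a replicate block, the recovered reads, leaving out each pool or, chosen after seeing the data, the 3 pools with the fewest reads, and, for the cycling call, adjusted JTK_CYCLE, a cosine and the normalised values.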

Additional observations from a re-analysis of the deposited data

How the results depend on the processing

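The time test called 7 members, 6 or 7 under the 8 alternatives other than leaving out 1 pool, and 5 to 8 without any single pool (5 without ZT14 A, which lost Wee1 and Klf9). Of all tested genes it called 8343 of 18941, and 9985 of 18941 with DESeq2 (7 members). With at least 10 counts in every pool it called 7786 of 11444 genes (6 members). The cycling call held for 5 members, for 4 to 6 under 11 alternatives and for 3 to 5 without a single pool, with 3 left without ZT6 B (Por, Tspan4 and Herpud1) and 3 without ZT10 B (Wee1, Por and Herpud1). Of all tested genes 5670 of 18941 were cycling, and 6239 of 18941 with DESeq2 (5 members). With at least 10 counts in every pool 5190 of 11444 genes were cycling (4 members). Klf9 lost the time test with no filter on low counts (q = 0.0593), Wee1 lost it with upper quartile scaling (q = 0.0538), and Klf10 lost JTK_CYCLE after adjustment over genes (0.0935). For ZT14 minus ZT18, 0 members became 2 with DESeq2 or without the 3 pools with the fewest reads (Usp2 and Klf9), 1 with at least 10 counts in every pool (Klf9), a filter that removed Wee1 and Lonrf3, and 0 to 2 without a single pool. Of all tested genes the ZT14 minus ZT18 test called 108, and 844 with DESeq2. It called 216 without the 3 pools with the fewest reads and 245 of 11444 with the filter. For ZT22 minus ZT2 and ZT6 minus ZT10 the count of members was 0 throughout. For light minus dark, 1 member became 3 with DESeq2 (Wee1, Klf10 and Tspan4) or without the 3 pools with the fewest reads (Wee1, Por and Klf10), 2 with upper quartile scaling (Klf10 and Tspan4), and 1 to 2 without a single pool. Of all tested genes 4517 became 5247 with DESeq2, 5471 without those 3 pools and 4417 with upper quartile scaling. The replicate block left 7, 5, 0, 0, 0 and 1 called members, the main counts, and 7847 genes past the time test against 8343. Deviations of each pool were also correlated with those of pools of other timepoints. The mean correlation was highest for the own letter, out of 3 letters, in 6 of 18 pools. The cause of the changes between settings was not tested.

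Signs changed only for differences that were not called. The light minus dark difference became 0.03 with upper quartile scaling and 0.04 with recovered reads for Usp2, 0.04 and 0.04 for Nampt, 0.00 with DESeq2, 0.00 with its size factors and 0.04 with upper quartile scaling for Klf9, and 0.00 with upper quartile scaling for Lonrf3. For ZT14 minus ZT18, Tspan4 became -0.01 with upper quartile scaling and -0.01 with no filter. Without the 3 pools with the fewest reads, Usp2 became 0.11 (light minus dark), Wee1 0.01 and Por -0.32 (ZT22 minus ZT2), Nampt -0.06 (ZT6 minus ZT10) and Tspan4 -0.07 (ZT14 minus ZT18). Leaving out single pools moved ZT22 minus ZT2 between -0.19 and 0.11 for Wee1, between -0.08 and 0.17 for Nampt, between -0.32 and 0.59 for Por, between -0.01 and 0.42 for Klf9 and between -0.12 and 0.41 for Klf10. It moved light minus dark between -0.13 and 0.04 for Usp2, between -0.71 and 0.13 for Lonrf3 and between -0.13 and 0.02 for Klf9, ZT6 minus ZT10 between -0.06 and 0.22 for Nampt, and ZT14 minus ZT18 between -0.07 and 0.20 for Tspan4.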
